A study of Mus musculus with 24 samples.

Results

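The Rb pathway and G1 cyclin genes described here are 10 genes taken by name: Rb1, Cdkn2a, Cdkn2b, Ccnd1, Ccnd2, Ccne1, Cdk4, Cdk6, E2f1 and E2f3. Their mouse Ensembl identifiers were matched to symbols among the 53465 genes of the count table. They were picked by name and not by a cut on measured values, but earlier results of these data were known. All 10 passed the filter on low counts in every comparison. RNA from 24 mouse bladder tumor allografts was sequenced, 3 tumors from each of 8 BURP (BBN-induced Urothelium Roswell Park) lines. Each line came from 1 donor mouse whose bladder tumor was induced with the nitrosamine BBN, and was then grown under the skin of immune-competent mice of the donor's sex, so host stroma and immune cells remain in every sample.

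Donors were C57BL/6NTac mice that drank 0.1% BBN from the age of 8 weeks for at most 36 weeks, and hosts were of the same strain. Host age, and whether any sequenced tumor came from a mouse given cisplatin, were not stated. The male lines BURP-12BaSq, BURP-17BaSq, BURP-18BaSq and the female lines BURP-21BaSq, BURP-24BaSq, BURP-25BaSq were classed as basal/squamous (Ba/Sq), the male line BURP-16SR as stroma-rich, and the male line BURP-19NE as neuroendocrine-like (NE-like). The labels give the line number, while sex and subtype come from the study, which assigned the subtypes from this same RNA and from histology. By the study's classifier the tumors of BURP-16SR were not uniform: most matched stroma-rich best, but not all, and the rest matched NE-like. Stroma-rich and NE-like each rest on 1 line, so subtype and donor cannot be told apart. Tumors of a line share a donor. In tests with each line as its own group, p-values therefore measure the spread among allografts of a line. Where tumors of several Ba/Sq lines formed 1 group, the spread also held differences between lines, and tumors of a line counted as independent.

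Estimated counts summed to 9295747 to 25370356 per tumor, and 3 counts corresponded to 0.106 to 1.34 CPM, counts scaled to a common library size with TMM factors, the unit of every level below. The basal keratins Krt5 and Krt14 reached at most 0.474 CPM in BURP-19NE and BURP-16SR against at least 2700 CPM in the Ba/Sq tumors. The sum over 6 epithelial genes was 141 to 213 CPM in BURP-19NE and 212 to 489 CPM in BURP-16SR against 6201 to 12181 CPM in Ba/Sq, with 5 and 4 of the 6 called lower. Not all epithelial markers were low: the simple-epithelial keratin Krt18 had 139 to 211 CPM in BURP-19NE and 129 to 320 CPM in BURP-16SR against a Ba/Sq median of 34.1 CPM, and Krt8 had 76 to 164 CPM in BURP-16SR against 33.1 CPM. The sum over 6 luminal urothelial genes was 112 to 121 CPM in BURP-19NE, nearly all from Gata3 (111 to 121 CPM), and 38.4 to 81.3 CPM in BURP-16SR, against 13.5 to 348 CPM in Ba/Sq. The uroplakin Upk2 was at 0 in both lines, beside a Ba/Sq median of 0.131 CPM. The fibroblast sum (8 genes) in BURP-19NE was 1172 to 1905 CPM, most of it from Col3a1 (1127 to 1538 CPM), while Col1a1 ran from 10.4 to 238 CPM. Of the 8, 2 had a positive log2 fold change against Ba/Sq, and the median was -1.02. The BURP-19NE tumor C80-M1 had 546 CPM over 6 skeletal muscle genes against 3.16 and 5.27 CPM in the other tumors of the line. The part of host cells in the BURP-19NE results was not tested. The tumor C102-M1, labelled BURP-25BaSq, had a mean Pearson r over genes of 0.968 with BURP-21BaSq and of 0.892 with its own line. In C102-M30, also BURP-25BaSq, 61.9% of counts lay in CT010467.1, a gene with ribosomal RNA sequence. Results for the 10 genes that use Ba/Sq tumors were therefore also computed without C102-M1 and C102-M30, and calls that changed are given beside the result. Calls of other genes and counts over gene lists were not rechecked, in this way or under any other alternative. Where each line was its own group, this left BURP-25BaSq with C102-M3 alone, and only the size of the difference is given. In bulk RNA, fewer cells of a type and less RNA per cell cannot be told apart.

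The retinoblastoma protein encoded by Rb1 binds E2F transcription factors and holds back the genes of S phase. D-type cyclins with Cdk4 or Cdk6, and then cyclin E with Cdk2, phosphorylate the protein and release E2F, while the INK4 proteins block Cdk4 and Cdk6. Genes of this pathway are often altered in urothelial carcinoma, and loss of RB1 is known from human small cell neuroendocrine carcinoma.

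Of the 10 genes, 4 passed the test between BURP-19NE and the 18 Ba/Sq tumors, all lower in BURP-19NE: Cdkn2b, Ccnd2, Ccne1 and Cdk6. A call required a Benjamini-Hochberg adjusted p under 0.05 in edgeR's quasi-likelihood test over all genes and an absolute log2 fold change over 1. Among all genes tested, 24.3% were called in this comparison and 15% were called lower. In BURP-16SR against the same 18 Ba/Sq tumors, 2 of the 10 were called, E2f1 and Ccnd1, both higher, where 19.2% of all genes were called and 10.5% were called higher. The comparisons of BURP-19NE and BURP-16SR with Ba/Sq share their control tumors. Without C102-M1 and C102-M30 all 4 calls in BURP-19NE were kept, and of the 2 in BURP-16SR only E2f1 was.

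**Figure D1:**
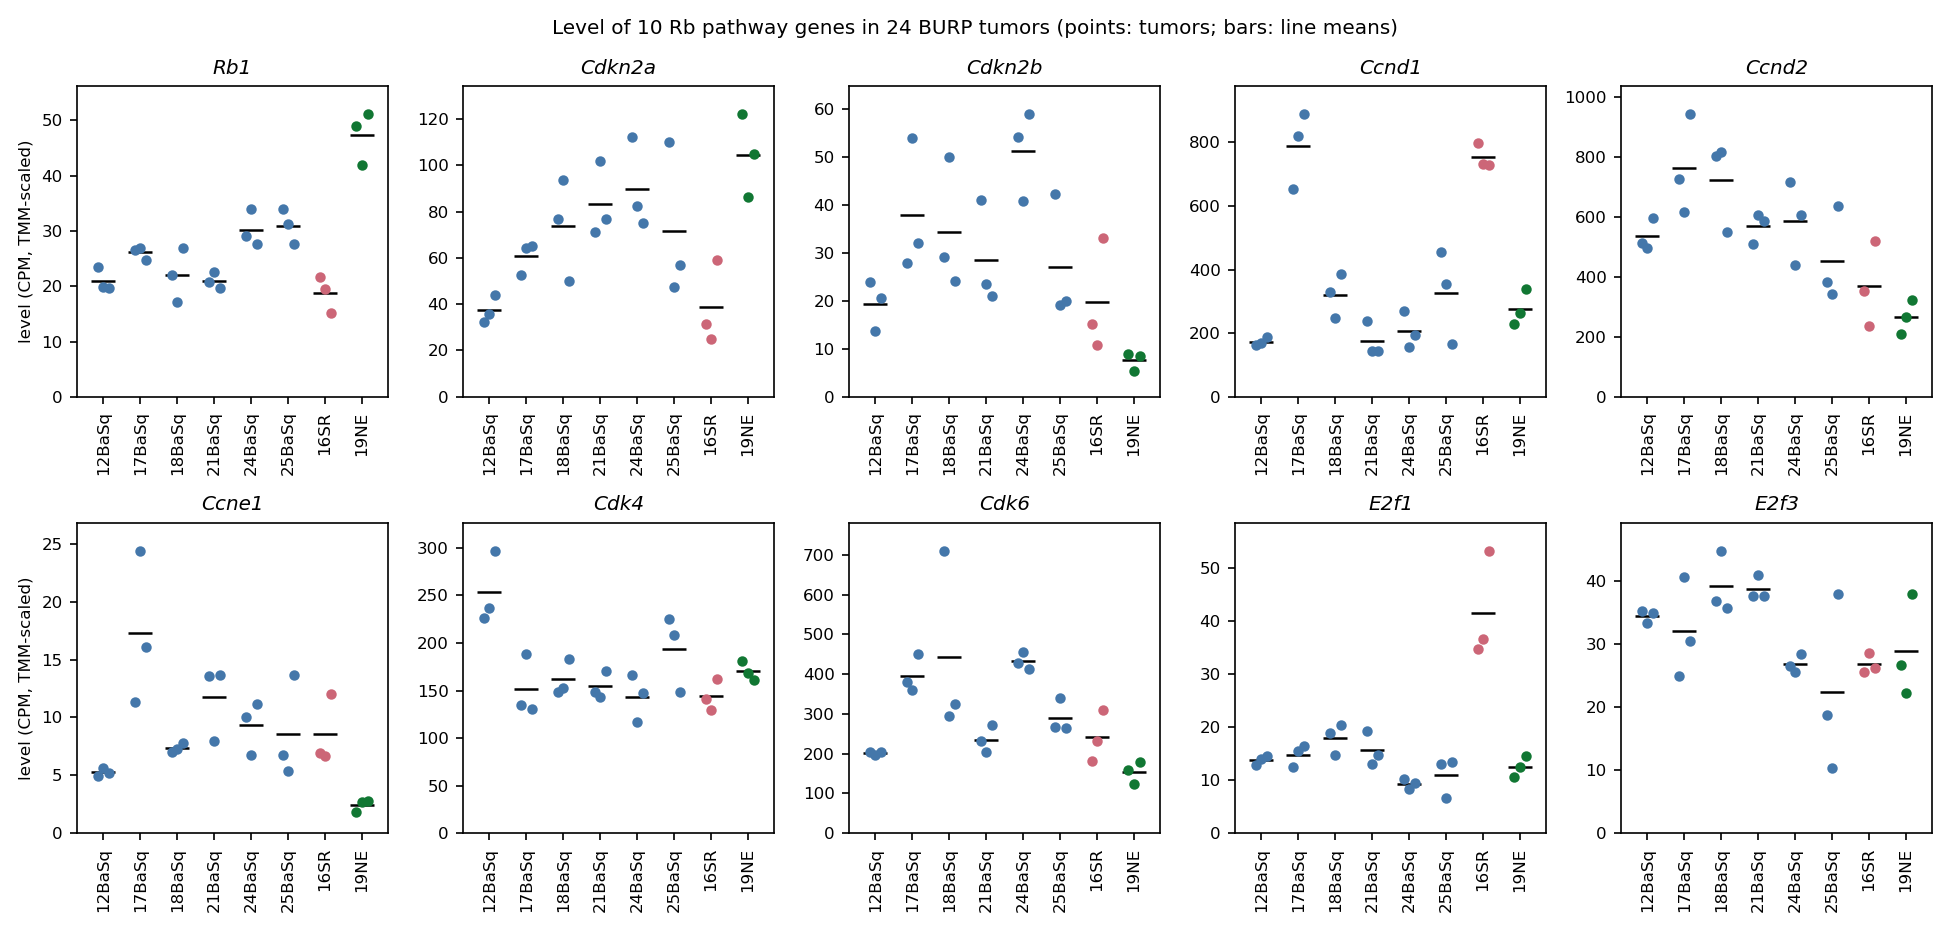
Level of each of the 10 genes in TMM-scaled CPM (y axis, linear from 0) by line (x axis), with 1 point per tumor (blue Ba/Sq, red BURP-16SR, green BURP-19NE) and a bar at the mean of 3 tumors. E2f1 in BURP-16SR (34.7 to 53.2 CPM) and Rb1 in BURP-19NE (41.9 to 51.1 CPM) lie above every Ba/Sq tumor, while Ccnd1 is high in BURP-16SR and BURP-17BaSq.

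Between BURP-16SR and BURP-19NE, 6 of the 10 were called, where 23.6% of all genes were. Ccnd1, Ccne1, E2f1 and Cdkn2b were higher in BURP-16SR, and Rb1 and Cdkn2a were lower. Between BURP-24BaSq and BURP-16SR, the lines the study treated with cisplatin, 4 were called, where 29.0% of all genes were. Cdkn2a and Cdkn2b were higher in BURP-24BaSq, and Ccnd1 and E2f1 were lower. Across all 8 lines, 8 of the 10 differed between some lines by at least 2-fold with an adjusted p under 0.05, against 65.7% of all genes, the exceptions being Cdk4 and E2f3. Across the 6 Ba/Sq lines, 4 did (Cdkn2a, Ccnd1, Ccne1 and Cdk6), against 39.4% of all genes. Leaving out C102-M1 and C102-M30 left BURP-25BaSq with 1 tumor. The largest log2 difference of E2f3 was then 1.09 over the 8 lines and over the 6, and that of Cdkn2b over the 6 was 1.43.

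**Figure D2:**
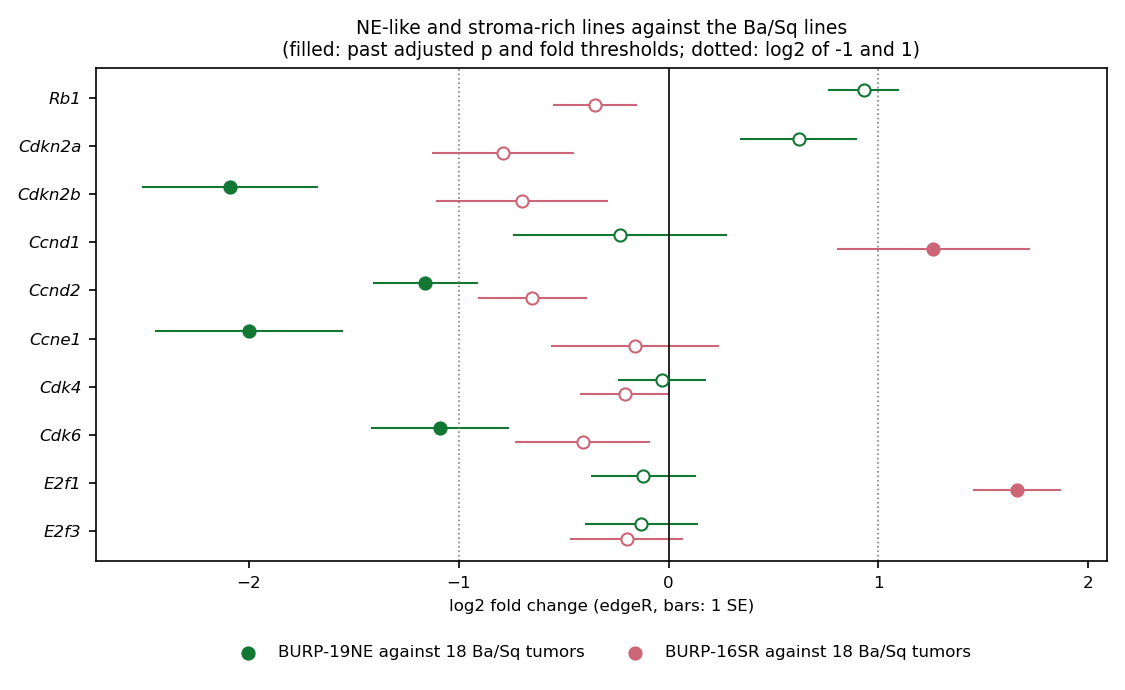
The log2 fold change (x axis; bars, 1 SE) of each of the 10 genes (y axis) in BURP-19NE (green) and BURP-16SR (red) against the same 18 Ba/Sq tumors, filled where the gene was called. The 4 filled green points are below -1 (Cdkn2b, Ccnd2, Ccne1, Cdk6) and the 2 filled red points are above 1 (Ccnd1, E2f1).

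Rb1 (ENSMUSG00000022105, chr14:73183673-73325822 of GRCm38, minus strand) encodes the pocket protein itself. Its level in BURP-19NE was 49.0, 41.9 and 51.1 CPM. In BURP-16SR it was 21.7, 19.5 and 15.2 CPM. In the 18 Ba/Sq tumors it ran from 17.2 to 33.9 CPM with a median of 25.7. All 3 BURP-19NE tumors thus lay above every other tumor, and BURP-16SR overlapped the Ba/Sq range. Rb1 in BURP-19NE exceeded Ba/Sq by 0.93 on the log2 scale (SE 0.17, adjusted p = 0.000282), which fell short of the fold threshold, so it is not counted as a call. Against BURP-19NE, Rb1 was lower in BURP-16SR by a log2 fold change of -1.23 (SE 0.20, adjusted p = 0.00537). In the order of line means, BURP-19NE (47.3 CPM ± 4.8, SD, n = 3) was followed by BURP-25BaSq at 31.0 CPM without overlap, and BURP-24BaSq at 30.2 CPM did not overlap BURP-17BaSq at 26.1 CPM. The other neighbours in that order overlapped, down to BURP-16SR at 18.8 CPM.

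Of the 5 listed pocket proteins and dimer partners (Rb1, Rbl1, Rbl2, Tfdp1, Tfdp2), none was called in BURP-19NE against Ba/Sq, with a median log2 fold change of 0.46 where that of all genes was -0.14. By edgeR 4 of the 5 had an unadjusted p under 0.05, as did 43.5% of all genes. Rb1 (adjusted p = 0.000282) and Rbl1 (adjusted p = 0.0174) stayed under it after adjustment, with differences short of the fold threshold. In BURP-16SR, 1 of the 5 was called, where 19.2% of all genes were. Rbl1, which encodes the related pocket protein p107, averaged 25.5 CPM ± 7.9 (SD, n = 3) there, while Ba/Sq averaged 63.2 CPM ± 17.8 (SD, n = 18), a log2 fold change of -1.24 (SE 0.28, adjusted p = 0.00294).

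Cdkn2a (ENSMUSG00000044303, chr4:89274471-89294653, minus strand) encodes the CDK inhibitor p16Ink4a from its downstream first exon and p19Arf, which protects p53, from its upstream one. Cdkn2b (ENSMUSG00000073802, chr4:89306299-89311039, minus strand) encodes the related inhibitor p15Ink4b and lies 11645 bases from it. The table gives 1 count per gene, so transcripts from the 2 Cdkn2a starts, 12461 bases apart, cannot be told apart. The 3 promoter sequences are printed because only 1 of these adjacent inhibitor genes was called in BURP-19NE against Ba/Sq. They are the bases before each start in GRCm38.p6 as RefSeq gives them, on the minus strand, shortened where the window would enter an annotated exon, with an E2F-type motif in capitals.
Cdkn2a upstream start, chr4:89294654-89294869: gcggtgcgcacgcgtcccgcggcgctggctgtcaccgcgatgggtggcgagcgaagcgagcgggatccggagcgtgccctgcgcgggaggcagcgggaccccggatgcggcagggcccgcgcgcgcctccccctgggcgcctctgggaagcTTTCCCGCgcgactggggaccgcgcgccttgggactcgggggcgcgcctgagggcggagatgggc
Cdkn2a downstream start, chr4:89282193-89282442: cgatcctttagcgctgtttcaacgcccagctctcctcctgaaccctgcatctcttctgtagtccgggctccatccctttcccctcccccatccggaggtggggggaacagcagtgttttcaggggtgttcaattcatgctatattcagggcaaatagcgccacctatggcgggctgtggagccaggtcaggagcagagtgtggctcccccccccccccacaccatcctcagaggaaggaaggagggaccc
Cdkn2b start, chr4:89311040-89311282: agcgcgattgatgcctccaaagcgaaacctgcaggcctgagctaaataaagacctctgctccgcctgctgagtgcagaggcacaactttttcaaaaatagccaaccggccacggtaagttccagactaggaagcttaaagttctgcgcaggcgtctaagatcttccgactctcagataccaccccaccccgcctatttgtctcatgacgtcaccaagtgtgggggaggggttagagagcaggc

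The window at the upstream Cdkn2a start was 78.7% G or C, against 60% at the downstream start and 53.5% at Cdkn2b. The capitals mark TTTCCCGC, whose first base lies 99 bases before the RefSeq start. The search covered 5 motifs of 8 letters (TTTCGCGC, TTTGGCGC, TTTCCCGC, TTTGGCGG, TTTGCCGC) on both strands of the 250 bases before each start, and 748 of 32851 RefSeq promoters (2.28%) held at least 1. Of 9 windows for 7 of the 10 genes, 2 held a motif: this one and the upstream E2f3 start, which had TTTCCCGC on the opposite strand 11 bases before it. The RefSeq windows of E2f1 (chr2:154569427-154569676) and Cdk6 (chr5:3343643-3343892) lie inside the gene spans given below. The bases before the outer ends of those spans were not searched, so a lack of motifs there was not shown. No entry was used for Rb1, Ccnd1 and Ccnd2.

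The level of Cdkn2a was 122, 86.4 and 105 CPM in BURP-19NE. In BURP-16SR it was 31.5, 25 and 59.2 CPM, and over the 18 Ba/Sq tumors it ran from 32.4 to 112 CPM with a median of 68.1. Both lines overlapped the Ba/Sq range but not each other. Cdkn2a in BURP-16SR was lower than in BURP-19NE by a log2 fold change of -1.36 (SE 0.31, adjusted p = 0.018), and the call was lost without C73-M10 (adjusted p = 0.0703), without C80-M1 (0.0686) or without C80-M30 (0.0574). Against Ba/Sq the log2 difference of Cdkn2a was 0.62 (SE 0.28, adjusted p = 0.0961) in BURP-19NE and -0.79 (SE 0.34, adjusted p = 0.0974) in BURP-16SR, neither past the threshold. Without the BURP-16SR tumor P5 the latter was -1.3 (adjusted p = 0.0355), a call.

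Among the Ba/Sq lines, Cdkn2a was lowest in BURP-12BaSq, with 32.4, 35.8 and 44.0 CPM, and highest in BURP-24BaSq, with 112, 82.3 and 75.2 CPM. The 3 BURP-12BaSq tumors lay below every other Ba/Sq tumor, of which the lowest had 47.4 CPM. Over all 8 lines every neighbouring pair in the order of line means overlapped, BURP-12BaSq with BURP-16SR. BURP-12BaSq differed from the mean of the other 5 Ba/Sq lines by -1.01 (SE 0.24, adjusted p = 0.00901), the 1 of the 10 genes called for this line, where 11.1% of all genes were. The Cdkn2a call sat at the fold threshold and was lost in 7 of the 18 fits that left out 1 tumor, with values from -1.14 to -0.91 and all negative: those without C41-M3 (-0.91) or C47-M30 (-0.98) of BURP-12BaSq, P4 of BURP-17BaSq (-1.0), C149-M3 of BURP-18BaSq (-0.97), P4.2 of BURP-21BaSq (-0.97), C81-M1 of BURP-24BaSq (-0.98) or C102-M3 of BURP-25BaSq (-0.92). Over all 6 lines the largest log2 difference of Cdkn2a was 1.26 (adjusted p = 0.0277), and without any 1 of the BURP-12BaSq tumors (C41-M3, 0.105; C47-M30, 0.0955; C47-M3, 0.0533) or without C81-M1 (0.0569) the adjusted p passed 0.05.

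Cdkn2b had 8.88, 5.32 and 8.58 CPM in BURP-19NE. In BURP-16SR it had 15.2, 10.8 and 33.2 CPM, and in Ba/Sq from 13.8 to 58.9 CPM with a median of 28.5. Every BURP-19NE tumor was below every other tumor in the series, while BURP-16SR overlapped Ba/Sq. Cdkn2b fell in BURP-19NE against Ba/Sq by a log2 fold change of -2.09 (SE 0.42, adjusted p = 0.000604), and was called in each of the 21 fits without 1 tumor, from -2.27 to -1.94. Against BURP-19NE it was higher in BURP-16SR, by 1.45 (SE 0.43, adjusted p = 0.0422), although that call was lost in 5 of 6 such fits, all but the one without C74-MNT: without C73-M10 (adjusted p = 0.079), without P5 (0.067), without C80-M1 (0.104), without C80-M3 (0.137) or without C80-M30 (0.103). The order of line means began with BURP-24BaSq (51.3 CPM ± 9.4, SD, n = 3) and ended with BURP-12BaSq (19.4 CPM ± 5.15) and BURP-19NE (7.59 CPM ± 1.97), the last pair of neighbours being the only one without overlap. Over the 6 Ba/Sq lines Cdkn2b was not called (largest difference 1.40, adjusted p = 0.0663), and was called without P4 of BURP-21BaSq (adjusted p = 0.0424) or without C102-M3 (adjusted p = 0.0231). Without C102-M1 and C102-M30, which left BURP-25BaSq with 1 tumor, the largest difference was 1.43.

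Both inhibitors were called higher in BURP-24BaSq than in BURP-16SR. Cdkn2a differed by 1.17 (SE 0.33, adjusted p = 0.0291) and Cdkn2b, at 54.2, 40.8 and 58.9 CPM in BURP-24BaSq, by 1.34 (SE 0.40, adjusted p = 0.0368), with no overlap between the lines for either gene. The only fit without 1 tumor that kept both calls was the one without P5 of BURP-16SR. Without the others the adjusted p of Cdkn2a was 0.0975 (C73-M10), 0.0565 (C74-MNT), 0.102 (C81-M1), 0.0695 (C81-M30) and 0.0545 (P2), and that of Cdkn2b was 0.117, 0.0607, 0.102, 0.0665 and 0.105 in the same order.

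Mtap (chr4:89137122-89181081), which encodes a purine salvage enzyme, lies on the far side of Cdkn2a from Cdkn2b and had yet another pattern. It averaged 164 CPM in BURP-19NE (SD 17.5, n = 3), 126 CPM in BURP-16SR (SD 49.8, n = 3) and 47.8 CPM over the Ba/Sq tumors (SD 17.3, n = 18). Every BURP-19NE and BURP-16SR tumor lay above every Ba/Sq tumor for Mtap, of which the highest had 91.3 CPM. Mtap was called higher in BURP-19NE (log2 fold change 1.8, SE 0.26, adjusted p = 1.94e-05) and in BURP-16SR (1.46, SE 0.27, adjusted p = 0.00046) against the same Ba/Sq tumors. The lowest value of Mtap, Cdkn2a or Cdkn2b in any tumor was the 5.32 CPM of Cdkn2b in C80-M3 of BURP-19NE.

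**Figure D3:**
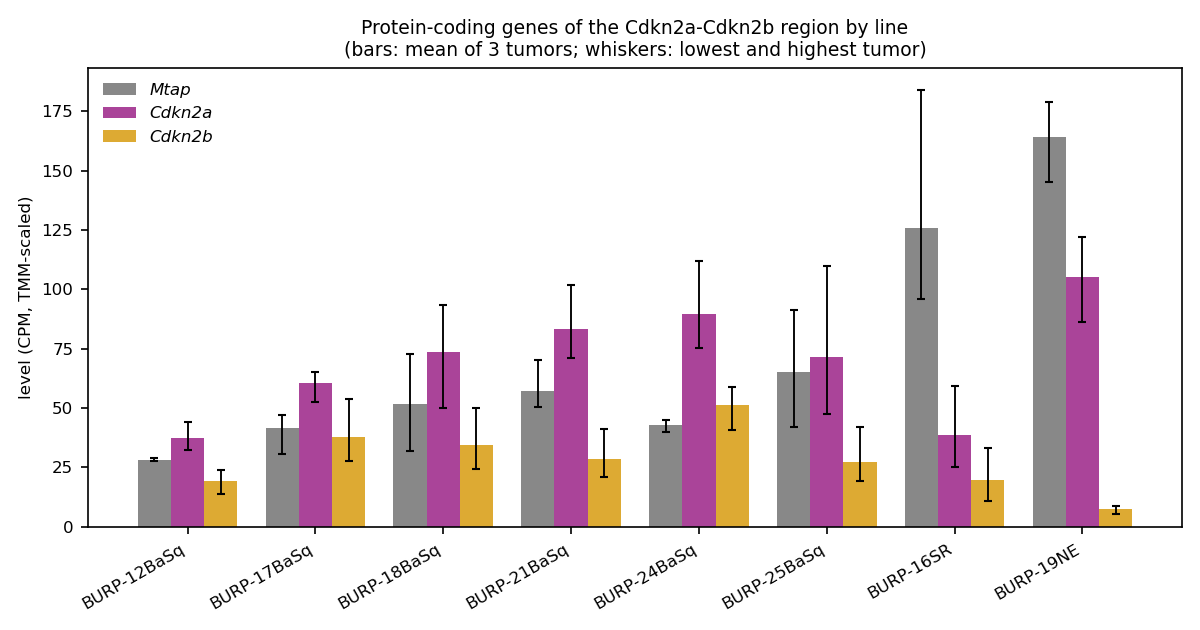
Mean level of Mtap, Cdkn2a and Cdkn2b (bars, TMM-scaled CPM, linear from 0) in each line, with whiskers at the lowest and highest of 3 tumors. BURP-19NE has the highest mean of Mtap (164 CPM) and of Cdkn2a (105 CPM) and the lowest of Cdkn2b (7.59 CPM).

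Among the noncoding genes of the region, Gm12606, a lincRNA that ends just past the 3' end of Cdkn2a (chr4:89235699-89273403), had 8.33 to 9.74 CPM in BURP-17BaSq and at most 1.03 CPM in every other Ba/Sq tumor. It differed from the mean of the other 5 Ba/Sq lines by 5.53 (SE 0.58, adjusted p = 9.99e-05), while neither Cdkn2a nor Cdkn2b was called for BURP-17BaSq. Wincr1, a lincRNA farther out, was lower in BURP-12BaSq (-3.78, SE 1.15, adjusted p = 0.0291) at 0 to 0.25 CPM, within reach of the floor of 3 counts. The pseudogene Gm12607, which lies inside the Mtap span, was higher in BURP-19NE (1.71, SE 0.34, adjusted p = 0.000644) and in BURP-16SR (1.13, SE 0.38, adjusted p = 0.0318) than in Ba/Sq at levels of 1.08 to 2.68 CPM. Gm12609, beyond Cdkn2b, was lower in BURP-16SR than in Ba/Sq (-2.17, SE 0.67, adjusted p = 0.0217). Whether counting used strand was not given, so overlapping genes may share reads.

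The wider list of 7 INK4 and CIP/KIP inhibitors split in BURP-19NE against Ba/Sq, with 2 higher, 3 lower and a median log2 fold change of -0.63. Among all genes, 24.3% were called in that comparison. Cdkn2c, which encodes the INK4 inhibitor p18, rose to 40.2 CPM ± 3.91 (SD, n = 3) from 13.2 CPM ± 4.89 (SD, n = 18), a difference of 1.63 (SE 0.25, adjusted p = 4.28e-05). The other that rose was Cdkn1b, encoding p27 and named after its values were seen (1.09, SE 0.25, adjusted p = 0.0021). Cdkn1c, encoding p57, fell to 0.494 CPM ± 0.0749 (SD, n = 3) from 5.04 CPM ± 5.26 (SD, n = 18), a difference of -3.31 (SE 0.88, adjusted p = 0.00607). Cdkn1a, encoding p21, fell by a log2 fold change of -1.41 (SE 0.53, adjusted p = 0.045). In BURP-16SR none of the 7 was called against Ba/Sq by edgeR, where 19.2% of all genes were. Of the 7, 2 (Cdkn2a and Cdkn1c) had an unadjusted p under 0.05, as did 37.3% of all genes.

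Ccnd1 (ENSMUSG00000070348, chr7:144929931-144939925, minus strand) encodes cyclin D1, a partner of Cdk4 and Cdk6. In BURP-16SR it had 799, 733 and 730 CPM, and in BURP-17BaSq 654, 821 and 888 CPM. In BURP-19NE it had 228, 264 and 339 CPM. Over all 18 Ba/Sq tumors Ccnd1 ran from 143 to 888 CPM with a median of 242. The lines BURP-16SR and BURP-17BaSq overlapped each other and no other line, and the highest tumor outside them had 456 CPM. All 3 BURP-16SR tumors lay above 16 of the 18 Ba/Sq tumors, and the 2 Ba/Sq tumors above all of them were both BURP-17BaSq.

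Against Ba/Sq, Ccnd1 rose in BURP-16SR by 1.26 (SE 0.46, adjusted p = 0.047), a call at the edge of the threshold. Without C102-M1 and C102-M30 the difference was 1.14 (adjusted p = 0.09) and not called. Leaving out 1 tumor ended the call in 16 of 21 fits, with differences from 1.19 to 1.41. The 16 were those without any 1 tumor of BURP-16SR (adjusted p = 0.156 without C73-M10, 0.119 without C74-MNT, 0.142 without P5), of BURP-12BaSq, of BURP-21BaSq or of BURP-24BaSq, and those without C148-M3 or C149-M3 of BURP-18BaSq (0.0652 and 0.0561) or C102-M30 or C102-M1 of BURP-25BaSq (0.0555 and 0.0581). For BURP-12BaSq the adjusted p was 0.0571, 0.0572 and 0.0579, for BURP-21BaSq 0.0598, 0.0562 and 0.0548, and for BURP-24BaSq 0.0585, 0.0567 and 0.0586. The 3 BURP-17BaSq tumors were among the controls of this test.

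Ccnd1 was higher in BURP-16SR than in BURP-19NE by 1.54 (SE 0.19, adjusted p = 0.00244) and lower in BURP-24BaSq than in BURP-16SR by a log2 fold change of -1.92 (SE 0.24, adjusted p = 0.00135). Each was called in all 6 fits without 1 tumor. The nearest gene past the 3' end of Ccnd1, Bc1 (chr7:144914470-144914637), a small noncoding RNA known from neurons, was higher than in Ba/Sq both in BURP-19NE (4.22, SE 0.56, adjusted p = 6.93e-06) and in BURP-16SR (3.60, SE 0.61, adjusted p = 0.00017). Tpcn2, the neighbour on the other side, was called in neither BURP-19NE (0.07, adjusted p = 0.918) nor BURP-16SR (-0.05, adjusted p = 0.949). Within Ba/Sq, Ccnd1 in BURP-17BaSq exceeded the mean of the other 5 lines by 1.77 (SE 0.22, adjusted p = 0.000323), called in all 18 fits without 1 tumor, from 1.68 to 1.89. In BURP-17BaSq 2 of the 10 genes were called, where 6.18% of all genes were. With all tumors, none was called by edgeR in BURP-18BaSq, BURP-21BaSq, BURP-24BaSq or BURP-25BaSq, where 15.5%, 2.86%, 7.79% and 2.59% of all genes were. At an unadjusted p under 0.05 the counts of the 10 in those 4 lines were 2, 3, 5 and 3, against 41.1%, 22.4%, 30.8% and 20.3% of all genes.

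**Figure D4:**
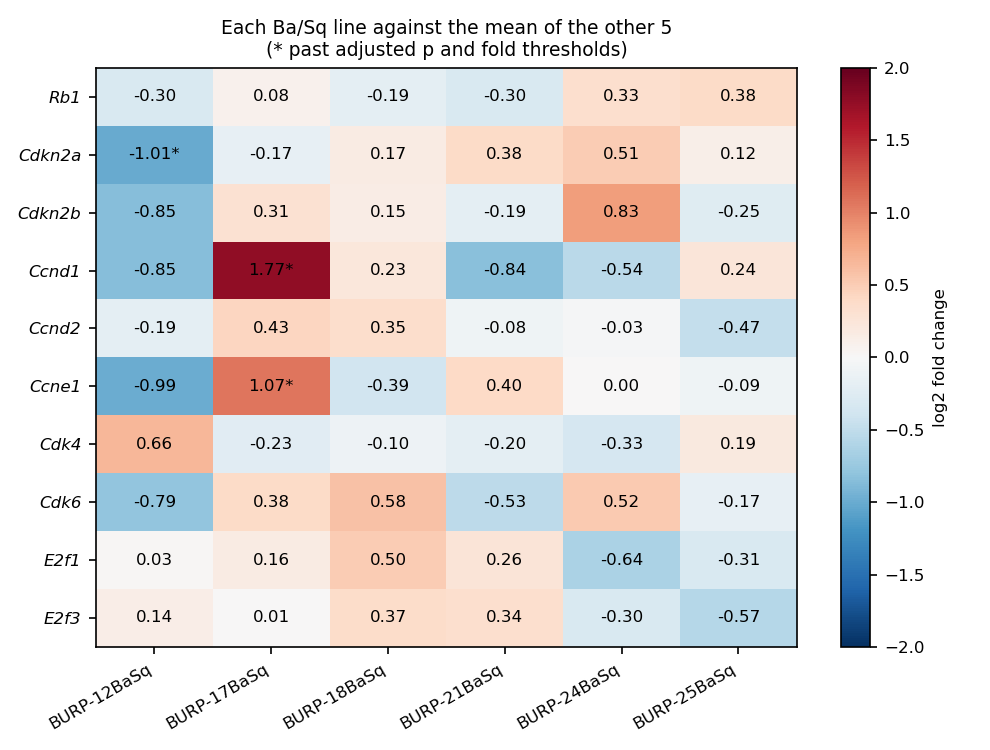
The log2 difference (color and printed value) of each of the 10 genes (y axis) between each Ba/Sq line (x axis) and the mean of the other 5 Ba/Sq lines, with an asterisk where called. Only 3 of the 60 cells are called: Ccnd1 (1.77) and Ccne1 (1.07) in BURP-17BaSq and Cdkn2a (-1.01) in BURP-12BaSq.

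Ccnd2 (ENSMUSG00000000184, chr6:127125162-127152193, minus strand) encodes cyclin D2. In BURP-19NE it had 209, 265 and 325 CPM. In BURP-16SR it had 355, 236 and 519 CPM, and in Ba/Sq from 345 to 944 CPM with a median of 602. BURP-19NE lay below every Ba/Sq tumor, and 12 of the 18 Ba/Sq tumors lay above all of BURP-16SR. Ccnd2 fell in BURP-19NE by a log2 fold change of -1.16 (SE 0.25, adjusted p = 0.00121), called in all 21 fits without 1 tumor. In BURP-16SR the difference was -0.65 (SE 0.26, adjusted p = 0.072), which became a call at -1.04 (adjusted p = 0.0272) without P5. No neighbours in the order of line means were free of overlap, from BURP-17BaSq (763 CPM ± 166, SD, n = 3) to BURP-19NE (266 CPM ± 57.9, SD, n = 3).

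Ccne1 (ENSMUSG00000002068, chr7:38097984-38107534, minus strand) encodes cyclin E1, which acts with Cdk2 at the entry to S phase and is itself an E2F target. Its level was 1.81, 2.69 and 2.81 CPM in BURP-19NE. In BURP-16SR it was 6.95, 6.66 and 12 CPM, and in Ba/Sq 4.92 to 24.4 CPM with a median of 7.90. The BURP-19NE tumors lay below all other tumors, and BURP-16SR lay inside the Ba/Sq range. Ccne1 fell in BURP-19NE by a log2 fold change of -2.0 (SE 0.45, adjusted p = 0.00191), called in all 21 fits without 1 tumor, from -2.16 to -1.87. It was higher in BURP-16SR than in BURP-19NE by 1.89 (SE 0.33, adjusted p = 0.00725).

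Within Ba/Sq, Ccne1 was 11.3, 24.4 and 16.1 CPM in BURP-17BaSq and 4.92, 5.61 and 5.22 CPM in BURP-12BaSq. BURP-17BaSq exceeded the mean of the other 5 lines by 1.07 (adjusted p = 0.0118). Without its tumor C165-M30 the Ccne1 difference was 0.74 (adjusted p = 0.11), and in a fit of 3 tumors against 15 it was 1.02 (adjusted p = 0.102), neither a call. BURP-12BaSq differed by -0.99 (adjusted p = 0.023), just short of the fold threshold. BURP-12BaSq overlapped neither BURP-18BaSq above it nor BURP-19NE below it in the order of line means.

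Cdk4 (ENSMUSG00000006728, chr10:127063534-127067920, plus strand) and Cdk6 (ENSMUSG00000040274, chr5:3341485-3531008, plus strand) encode the kinases that the D cyclins activate. With all tumors, Cdk4 varied least by line together with E2f3: it was called in no comparison, with a largest log2 difference over the 8 lines of 0.82 (adjusted p = 0.0048) that did not reach 2-fold. Its highest levels were 226, 237 and 297 CPM in BURP-12BaSq, and the Ba/Sq range was 117 to 297 CPM with a median of 159. BURP-12BaSq lay above every other tumor for Cdk4 and differed from the other 5 Ba/Sq lines by 0.66 (adjusted p = 0.00549), under the fold threshold. The 3 BURP-19NE tumors (181, 169 and 161 CPM) sat inside the Ba/Sq range.

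Cdk6 had 158, 125 and 179 CPM in BURP-19NE. In BURP-16SR it had 181, 232 and 310 CPM, and in Ba/Sq from 197 to 710 CPM with a median of 310. BURP-19NE was below every other tumor for this kinase. Cdk6 fell in BURP-19NE against Ba/Sq by a log2 fold change of -1.09 (SE 0.33, adjusted p = 0.0156), a call lost without C80-M1 (-1.15, adjusted p = 0.0522) or without C80-M3 (-0.99, adjusted p = 0.0867). Against BURP-19NE, Cdk6 in BURP-16SR differed by 0.73 (SE 0.22, adjusted p = 0.0441), and BURP-24BaSq against BURP-16SR differed by 0.79 (SE 0.21, adjusted p = 0.0232), both under the fold threshold. Without P5 the latter was 1.06 (adjusted p = 0.00426), a call. Over the 6 Ba/Sq lines Cdk6 differed by up to 1.14 (adjusted p = 0.00746). The order began with BURP-18BaSq, at 710, 295 and 325 CPM, BURP-24BaSq, at 428, 456 and 412 CPM, and BURP-17BaSq, at 379, 359 and 451 CPM, and only C148-M3 of BURP-18BaSq exceeded 456 CPM.

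Of the 11 listed G1 cyclins, kinases and regulators, 3 fell and none rose in BURP-19NE against Ba/Sq (Ccnd2, Ccne1, Cdk6), with a median log2 fold change of -0.23 beside -0.14 over all genes. In BURP-16SR 2 rose and none fell, Ccnd1 and Ccnd3, with a median of -0.20 beside -0.03. Calls in either direction made up 24.3% of all genes in BURP-19NE against Ba/Sq and 19.2% in BURP-16SR. Ccnd3, which encodes cyclin D3, averaged 76.7 CPM (SD 16.5, n = 3) in BURP-16SR, while Ba/Sq averaged 32.7 CPM (SD 7.22, n = 18), a difference of 1.3 (SE 0.19, adjusted p = 3.69e-05). The lowest BURP-16SR tumor had 60.9 CPM and the highest Ba/Sq tumor 43.1 CPM, so Ccnd3 did not overlap.

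E2f1 (ENSMUSG00000027490, chr2:154559407-154569892, minus strand) encodes the activating E2F that the retinoblastoma protein holds in check. In BURP-16SR it had 34.7, 36.6 and 53.2 CPM. In BURP-19NE it had 10.6, 12.4 and 14.6 CPM, and in Ba/Sq from 6.71 to 20.3 CPM with a median of 13.6. All BURP-16SR tumors lay above every other tumor, and BURP-19NE lay inside the Ba/Sq range. E2f1 rose in BURP-16SR against Ba/Sq by 1.66 (SE 0.21, adjusted p = 6.69e-06), a fold change of 3.15. The E2f1 difference ran from 1.37 to 1.75 in the 21 fits without 1 tumor, each a call, and was 1.54 (adjusted p = 1.98e-05) without C102-M1 and C102-M30.

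E2f1 was also higher in BURP-16SR than in BURP-19NE, by 1.81 (SE 0.21, adjusted p = 0.00207), and lower in BURP-24BaSq, at 10.3, 8.27 and 9.43 CPM, than in BURP-16SR, by a log2 fold change of -2.20 (SE 0.21, adjusted p = 0.000466). Both calls were kept in all 6 fits without 1 tumor. Marker levels varied widely among the BURP-16SR tumors: the sum over 8 fibroblast genes was 7473 CPM in C73-M10, 20045 CPM in C74-MNT and 584 CPM in P5, against 209 to 9809 CPM in Ba/Sq with a median of 1109. E2f1 was highest in P5 (53.2 CPM), the tumor with the lowest fibroblast and macrophage sums of the 3 (584 and 64.8 CPM). Its sum over 6 endothelial genes was 343 CPM, beside 237 and 349 CPM in the other 2 and a Ba/Sq median of 87.9 CPM. Of the marker genes of host cells, 5 of 5 for B cells, 4 of 8 for fibroblasts and 3 of 6 for endothelium were called higher in BURP-16SR than in Ba/Sq. So were 1 of 6 for T cells and 0 of 8 for macrophages, 0 of 6 for skeletal muscle and 0 of 4 for adipocytes, beside 10.5% of all genes. The B cell sum in BURP-16SR ran from 1.54 to 284 CPM with a median of 7.89 CPM, so 1 tumor carried most of it. The same tumor P5 had the highest Cdkn2a, Cdkn2b, Ccnd2, Ccne1, Cdk4 and Cdk6 of BURP-16SR. The part of host cells in the BURP-16SR values, E2f1 included, was not tested.

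E2f3 (ENSMUSG00000016477, chr13:29906575-29986063, minus strand) encodes another activating E2F and lies in a segment often amplified in human bladder cancer. The Ba/Sq tumors ran from 10.3 to 44.8 CPM with a median of 35.1, and all 3 tumors of BURP-16SR and of BURP-19NE lay inside that range. E2f3 was called in no comparison. The widest spread was in BURP-25BaSq, with 18.8 CPM in C102-M3, 10.3 CPM in C102-M30 and 38.0 CPM in C102-M1, and the last value lay in the range of BURP-21BaSq (37.7, 40.9 and 37.7 CPM). With all tumors, E2f3 differed by up to 0.77 over the 8 lines (adjusted p = 0.178) and 0.78 over the 6 Ba/Sq lines (adjusted p = 0.191). Without C102-M1 and C102-M30, which left BURP-25BaSq with C102-M3 alone, both values were 1.09. Without C102-M1 alone E2f3 was called over the 8 lines at 1.37 (adjusted p = 0.00241). It was then also called lower in BURP-25BaSq than in the other 5 Ba/Sq lines (-1.17, adjusted p = 0.00281), against -0.57 with all tumors. With C102-M1 counted as BURP-21BaSq that difference was -1.16 (adjusted p = 0.00165), also a call.

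Among the 8 E2F family genes, 1 rose and none fell in BURP-19NE against Ba/Sq, and 2 rose and 1 fell in BURP-16SR. The share of all genes called, in either direction, was 24.3% in BURP-19NE and 19.2% in BURP-16SR. E2f8, an atypical E2F that represses E2F targets, rose in both, averaging 191 CPM (SD 38, n = 3) in BURP-19NE, 92.0 CPM (SD 21.4, n = 3) in BURP-16SR, while Ba/Sq averaged 25.8 CPM (SD 7.4, n = 18). Its differences were 2.91 (SE 0.19, adjusted p = 1.67e-10) in BURP-19NE and 1.90 (SE 0.20, adjusted p = 4.48e-07) in BURP-16SR. The highest Ba/Sq tumor had 46.6 CPM of E2f8 and the lowest BURP-16SR tumor 77.1 CPM. E2f7, the other atypical member, fell in BURP-16SR by a log2 fold change of -1.25 (SE 0.37, adjusted p = 0.0163).

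Of 25 listed S phase genes that E2F is known to activate, 1 rose and 7 fell in BURP-16SR against Ba/Sq, where 8.62% of all genes were called lower, with a median log2 fold change of -0.61 beside -0.03 over all genes. The summed level of the 25 was 605, 977 and 924 CPM in BURP-16SR and 743, 774 and 1078 CPM in BURP-19NE, against 821 to 1446 CPM in Ba/Sq with a median of 1191. Both lines overlapped the lower end of the Ba/Sq range. In BURP-19NE 1 of the 25 rose and 8 fell, with a median of -0.79 beside -0.14, where 15% of all genes were called lower. Of 16 mitotic genes, 7 fell and none rose in BURP-16SR (median -0.85), and 1 fell and none rose in BURP-19NE (median -0.30). The mitotic sum over the 3 BURP-16SR tumors was 574, 1192 and 726 CPM, and C74-MNT, with the highest S phase and mitotic sums, also had the highest fibroblast sum.

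**Figure D5:**
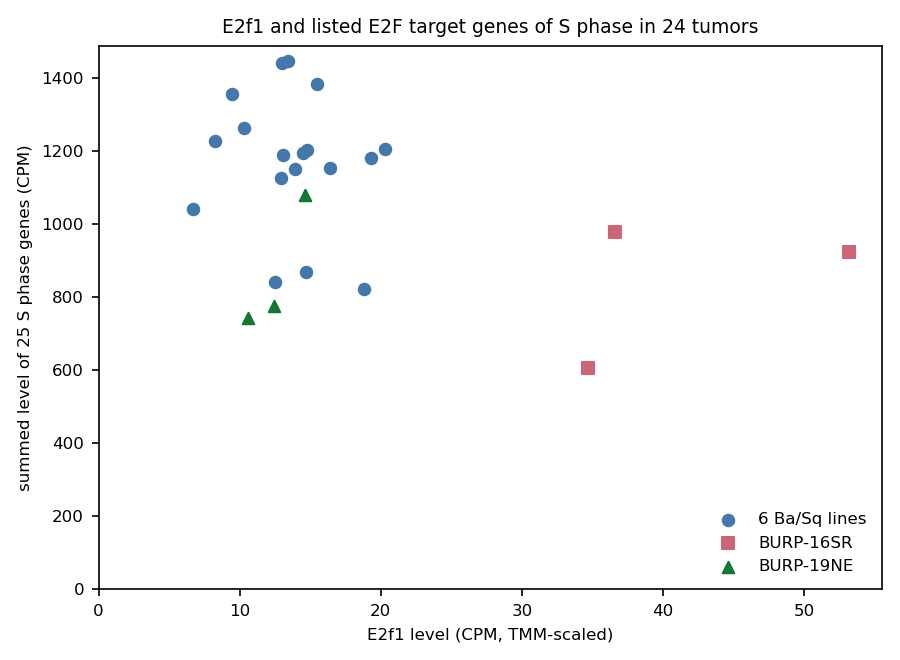
E2f1 level (x axis, TMM-scaled CPM) against the summed level of 25 S phase genes (y axis, CPM, linear from 0), with 1 point per tumor. The 3 BURP-16SR tumors (squares) lie at 34.7 to 53.2 CPM of E2f1 and 605 to 977 CPM of the sum, to the right of all Ba/Sq tumors (circles, 821 to 1446 CPM) and BURP-19NE (triangles).

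Between male and female Ba/Sq lines (9 tumors each, 3 lines each), none of the 10 was called, where 2.31% of all genes were. At edgeR's unadjusted p under 0.05 there were 2 of the 10, against 23.1% of all genes, and DESeq2 called none. The values nearest the threshold were Cdkn2a, lower in males by a log2 difference of -0.50 (adjusted p = 0.152), and Ccnd1, at 0.86 (adjusted p = 0.157). Ccnd1 rested on BURP-17BaSq, a male line: leaving out 1 line at a time gave 0.08 to 1.24, and it was called (adjusted p = 0.0276) without BURP-12BaSq. Since tumors of a line share a donor, p-values over tumors are too small for a sex difference. With counts summed per line, 3 against 3, edgeR called none of the 10 and 0 of all genes.

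Per kilobase of exon sequence, the mean level over all 24 tumors was highest for Ccnd1 at 80.2 CPM per kb. Cdkn2a (59.6), Ccnd2 (56.7) and Cdk4 (52.8 CPM per kb) came next, with Cdk6 (21.4) and Cdkn2b (20.3 CPM per kb) below them. E2f3 (5.74), E2f1 (5.41), Rb1 (4.52) and Ccne1 (3.32 CPM per kb) had the lowest levels on this scale, which divides by the union of annotated exons and not by the isoform in use. The order differed by line: Ccnd1 had the highest mean in 3 of the 8 lines, BURP-16SR, BURP-17BaSq and BURP-25BaSq. The highest was Cdkn2a in BURP-19NE (89.2 against 58.9 CPM per kb for Ccnd1), BURP-21BaSq and BURP-24BaSq, Cdk4 in BURP-12BaSq (77.9 against 36.8 CPM per kb) and Ccnd2 in BURP-18BaSq (77.0 against 68.1 CPM per kb).

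The levels of the 10 genes were compared with one another over the 24 tumors as Pearson r of log2 CPM, a description over tumors that share lines. Cdkn2b, Ccnd2, Ccne1 and Cdk6, the genes called lower in BURP-19NE, had an r of 0.72 for Cdkn2b with Ccne1 and with Cdk6, of 0.71 for Cdkn2b with Ccnd2, and of 0.58 to 0.70 among the rest of the set. This set was picked by its low level in BURP-19NE, whose tumors are among the 24, so positive values are partly built in. Values without that line were not computed. Rb1 had -0.56 with E2f1 and -0.54 with Ccne1. Cdkn2a and Cdkn2b, although adjacent, had only 0.20.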

How the data were processed

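Total RNA of 24 tumors was depleted of ribosomal RNA and sequenced in pairs. The authors aligned reads with STAR 2.6.0a to GRCm38 with GENCODE M16 and deposited estimated counts per gene from RSEM 1.3.1, of which 12.5% were not whole. These were rounded here. Symbols and positions came from GENCODE M21 (99.8% of identifiers matched). Tumors were grouped by the line number in their labels.

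Each comparison was fitted over all genes in edgeR 4.0.16 (R 4.3.3; TMM, filterByExpr, quasi-likelihood F test), with 1 coefficient per group, or per line where the Ba/Sq lines were compared with each other. P-values were adjusted over all genes tested by Benjamini-Hochberg. The SE is the log2 fold change divided by the square root of F. CPM used TMM factors over 24 tumors (21383 genes past the filter), and log2 CPM a prior count of 2. The steps were tested on simulated counts in which chosen genes were changed by known folds. Those counts held no line or donor effects, so the test does not cover tumors that share a donor.

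Text names all 10 genes, and up to 4 genes a pathway list, those with the largest called change. A gene outside this rule is marked as such, and 1 listed S phase gene is counted in sums and medians but not reported here. The genes and lists were chosen with earlier results of these data known. Alternatives were DESeq2 1.42.0, its size factors, other filters, a fit of all tumors, removal of CT010467.1 and Gm26917, C102-M1 counted as BURP-21BaSq, sums per line, and leaving out each tumor. Leaving out C102-M1 and C102-M30 was added after seeing the data.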

Additional observations from a re-analysis of the deposited data

Results flagged for a closer look

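Among the 9 male Ba/Sq tumors, Cdk6 was 710 CPM in C148-M3 of BURP-18BaSq, farther from the other 8 than Dixon's test allows at 95%. The other BURP-18BaSq tumors had 295 and 325 CPM. The test was run on 20 groups (the 10 genes in the male and in the female Ba/Sq tumors) and 1 was picked out, where chance picks out about 1 in 20. Without C148-M3 the Cdk6 difference of BURP-18BaSq from the other 5 Ba/Sq lines was 0.06, against 0.58 with it, and neither was a call.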

How the results depend on the processing

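For BURP-16SR against Ba/Sq, 1 of the 10 genes rather than 2 was called with no filter, without the ribosomal genes, and without C102-M1 and C102-M30, Ccnd1 being lost each time (1.16, adjusted p = 0.0893; 1.23, adjusted p = 0.0566; 1.14, adjusted p = 0.09); the cause was not tested. Over the 6 Ba/Sq lines 7 rather than 4 were called with C102-M1 counted as BURP-21BaSq, with Ccnd2, Cdkn2b and E2f3 added. Leaving out 1 tumor gave 1 to 3 calls in BURP-16SR against Ba/Sq, 3 to 4 in BURP-19NE against Ba/Sq, 4 to 6 between these lines, 2 to 5 in BURP-24BaSq against BURP-16SR, 8 to 9 over the 8 lines, 3 to 6 over the 6 and 2 to 4 of the 60 single-line tests, and leaving out 1 line gave 0 to 1 between sexes. Of 442 other alternatives on 66 results for single genes, 426 kept their call and direction, 12 became calls, 4 lost it and none turned sign. Counting C102-M1 as BURP-21BaSq leaves the groups unchanged in the comparisons of BURP-19NE and BURP-16SR with Ba/Sq and between sexes. Those entries among the 442 could not change a call. Some of the 12 came from fits that left BURP-25BaSq with 1 tumor. Ccne1 in BURP-12BaSq became a call (-1.02 to -1.01) with DESeq2's size factors, with at least 10 counts in every tumor, and without the ribosomal genes. Over all genes, the count of calls moved by more than 1.5 times with at least 10 counts in every tumor: from 5108 to 2001 in BURP-19NE, from 4029 to 1594 in BURP-16SR (both against Ba/Sq), from 14059 to 6816 over the 8 lines, from 8094 to 4451 over the 6, and between sexes from 414 to 191. That filter also changes which genes are tested, and shares of the genes tested were not compared. Between sexes the count of calls was also 768 with DESeq2, 1473 in a fit of all tumors and 0 with sums per line, and 865, 1196 or 225 without the line BURP-12BaSq, BURP-17BaSq or BURP-24BaSq. Without C73-M10 the count in BURP-16SR against Ba/Sq was 2670. No paired analysis was possible because replicate numbers only name tumors, and no label pairs tumors across lines. At 3 counts the floor was 0.106 to 1.34 CPM, beside a lowest level among the 10 genes of 1.81 CPM (Ccne1 in BURP-19NE).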

Other observations

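For each of the 10 genes, the genes whose level was most like its own over the 24 tumors were listed by Pearson r of log2 CPM, with no test. Because 3 tumors share each line, any gene that sets 1 line apart can rank high. E2f1 was most like Mphosph9 (0.913) and Elmo2 (0.912), Ccne1 most like Tnip1 (0.895), Cdkn2b most like Arc (0.891) and Slc9a3r1 (0.887), Ccnd2 most like Dusp7 (0.880) and Ccnd1 most like Inpp5a (0.875). Rb1 was most like D030068K23Rik (0.868) and Gpalpp1 (0.846), Cdk6 most like Paqr4 (0.853), Cdkn2a most like Mei4 (0.860), and Cdk4 most like BC048403 (0.823). E2f3 was most like Spx (0.889) and Gm11365 (0.876), and the latter lies beside E2f3, so reads of the pair may not be told apart without strand.

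Of the 20 most alike genes of each, 38 of 200 (19%) lay on the same chromosome as the gene itself, where 5.9% of all genes did on average. The count was 8 of 20 for Cdk4, 6 for Ccnd1 and 6 for Cdk6, and 0 for Ccnd2. The median r with genes within 5 Mb was 0.27 for Ccnd1 (121 genes), 0.21 for E2f1 (162 genes) and 0.20 for Cdk4 (112 genes), and from -0.03 (Cdkn2b) to 0.18 (Cdkn2a) for the other 7, among them -0.02 for Ccnd2, 0.05 for Rb1 and 0.06 for Ccne1, against medians of -0.02 to 0.03 over all genes for each of the 10. This pattern was noticed in the data, and neighbouring genes are not independent, so these are descriptions. DNA copy number was not measured in the files used here.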
